A study of Mus musculus with 12 samples.

Results

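The genes described here encode the laminin chains, the nidogens and perlecan of the mouse vessel wall basement membrane. They were chosen by name, with earlier results of these data known, out of 30702 genes that the arrays name with a single symbol. The 10 genes are Lama2, Lama3, Lama4, Lama5, Lamb1, Lamb2, Lamc1, Nid1, Nid2 and Hspg2. Each of the 10 was measured by 1 transcript cluster, a set of probes summarised as 1 value, and 10 of 10 passed the signal filter and entered the tests. The study followed vessels of male C57BL/6 mice, 8 to 10 weeks old, that received angiotensin II, the pressor peptide of the renin-angiotensin system, from an implanted pump at 1500 ng per kg per minute. Vessels were taken after 1, 3 or 7 days of infusion, with 3 arrays for each day, and 3 further arrays came from untreated mice, called day 0 here. The peptide was dissolved in Ringer's solution with acetic acid. A group infused with that solution alone was not analysed here, so pump, surgery and peptide cannot be told apart. The labels do not say which vessel was taken or whether 1 array holds 1 mouse or several, and p-values therefore measure the spread between arrays.

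A basement membrane is a thin sheet of matrix that underlies endothelium and surrounds each smooth muscle cell. Laminins, each a trimer of an α, a β and a γ chain, bind receptors on the cell and assemble into one network, type IV collagen forms another, and nidogens and the heparan sulfate proteoglycan perlecan link the networks together. In arteries, laminins with the α4 or α5 chain are typical of endothelium, smooth muscle cells are surrounded by laminins that include the β2 chain, and perlecan is abundant around smooth muscle.

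All values are the deposited log2 signals. In each of 12 arrays the median of the positive-control features lay above that of the negative-control features, by 2.56 to 2.64 in the untreated arrays and by 1.20 to 2.51 in the 9 treated arrays, which all lay below the untreated ones. The lowest value, 1.20, was that of replicate 1 of day 7. Arrays of 1 group correlated at r = 0.969 to 0.993 over the 22066 genes tested, and arrays of different groups at 0.916 to 0.990. The labelled tissue was checked against its markers: the mean log2 signal of 10 smooth muscle genes (such as Acta2 and Myh11) was 13.77 to 13.90 at day 0, 11.65 to 13.42 at day 1, 11.05 to 12.20 at day 3 and 8.59 to 11.16 at day 7. In these bulk samples, fewer cells of a type and less RNA per cell cannot be told apart. Of the genes called against day 0, 54.9% rose at day 1, 39.3% at day 3 and 47.9% at day 7. After quantile normalization these shares were 62.0%, 29.8% and 23.0%, and after centring each array on its median 66.3%, 23.1% and 20.6%. The median change of all genes at day 7 was 0.09 as deposited, -0.11 after quantile normalization and -0.19 after centring.

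Perlecan and the laminin β2, α4 and α5 chains fell by more than 2-fold, and the laminin β1 chain and nidogen-1 rose by more than 2-fold. At day 7 against day 0, Hspg2 was 5.57-fold lower, Lamb2 5.18-fold lower, Lama4 3.16-fold lower and Lama5 2.59-fold lower, while Lamb1 was 3.15-fold and Nid1 2.09-fold higher. These 6 of 10 members passed the test, an adjusted p under 0.05 from limma with Benjamini-Hochberg adjustment over all 22066 genes tested. Of all genes tested 25.2% did so. The members were chosen with earlier results known, so the difference between these shares is not separate evidence. Lama2, Lama3, Lamc1 and Nid2 did not pass at day 7. Lama5 was just inside the threshold (adjusted p = 0.0484, limma), and leaving out any 1 of 9 arrays lost its call. With a stricter signal filter, at the 60th percentile, 6 of 9 members tested and 5035 of 15485 genes passed at day 7. With the control features as a covariate 1 member, Nid1, passed at day 7, and with the smooth muscle mean 0 did. In these 2 fits 771 and 0 of all genes passed. A change is written below as a difference in log2 signal ± its standard error from the limma fit, with 3 arrays in each group.

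**Figure D1:**
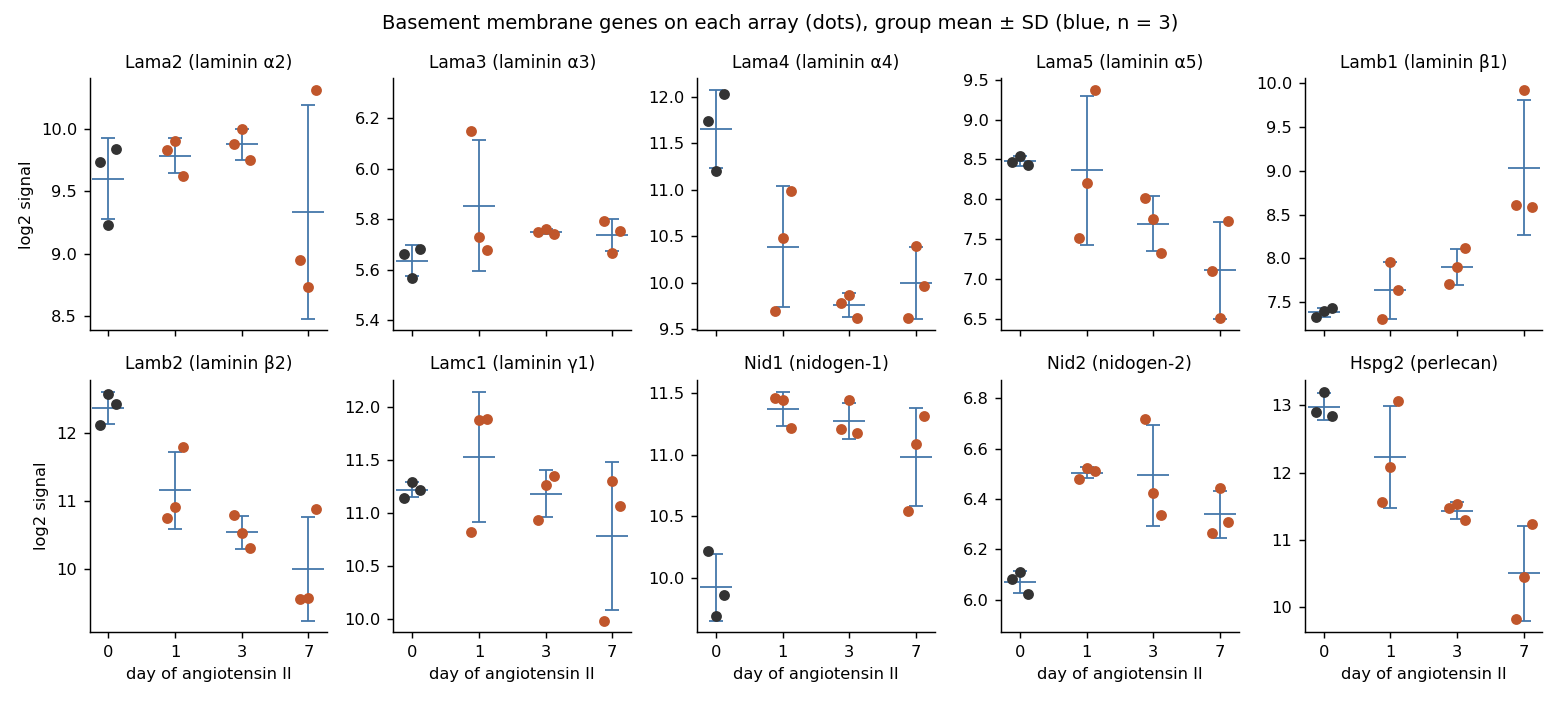
Log2 signal of each of the 10 genes on every array (black dots, untreated; orange dots, treated) with the mean ± SD of each day (blue, n = 3), against the day of angiotensin II infusion, with a separate vertical scale for each gene. Hspg2, Lamb2 and Lama4 step down from day 0, Nid1 is higher at every later day and Lamb1 is highest at day 7.

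The promoters of Hspg2, Lamb2, Lamb1 and Nid1 are shown because these are the members with the largest falls and rises for which the table holds a sequence. RefSeq promoter windows (assembly GRCm38.p6, 250 bases before to 50 after the start of transcription, 300 in all) were found for 6 of the 10 members, and only the bases upstream of every annotated start of the gene are printed. Each sequence runs 5′ to 3′ on the strand of its gene. Capitals mark the GC box, GGGCGG on either strand, a sequence bound by Sp1-type factors. The Hspg2 stretch is chr4:137468553-137468750, the Lamb2 stretch chr9:108479612-108479846, the Lamb1 stretch chr12:31265043-31265145 and the Nid1 stretch chr13:13437352-13437601, all on the plus strand.
Hspg2: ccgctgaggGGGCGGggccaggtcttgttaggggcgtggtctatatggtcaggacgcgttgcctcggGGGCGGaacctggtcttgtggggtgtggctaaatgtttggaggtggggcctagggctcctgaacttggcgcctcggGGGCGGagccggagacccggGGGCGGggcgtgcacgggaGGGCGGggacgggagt
Lamb2: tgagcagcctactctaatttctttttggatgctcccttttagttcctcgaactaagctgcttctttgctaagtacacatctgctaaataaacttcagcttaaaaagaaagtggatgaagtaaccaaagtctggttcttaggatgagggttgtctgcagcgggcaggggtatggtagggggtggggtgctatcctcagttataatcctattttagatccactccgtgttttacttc
Lamb1: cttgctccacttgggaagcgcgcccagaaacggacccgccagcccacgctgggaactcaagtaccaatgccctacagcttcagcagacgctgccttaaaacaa
Nid1: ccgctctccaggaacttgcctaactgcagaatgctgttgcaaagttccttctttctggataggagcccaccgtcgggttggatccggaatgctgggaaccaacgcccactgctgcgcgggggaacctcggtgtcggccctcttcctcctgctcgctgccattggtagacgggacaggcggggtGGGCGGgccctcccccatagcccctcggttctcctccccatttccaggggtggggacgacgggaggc

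The Hspg2 promoter held 5 GC boxes in 198 printed bases, the Nid1 promoter 1 in 250 bases, and the Lamb2 promoter 0 in 235 bases. The Lamb1 window held 2 GC boxes, both outside the 103 bases printed. A GC box was present in the windows of 5 of the 6 members, all but Lamb2, and in 35.7% of all 32851 promoter windows in the table. The paired β chain genes also differed in base composition, at 44.0% G and C in the Lamb2 window and 63.7% in the Lamb1 window, where the median over all promoters was 52.7%. Other motifs were searched on both strands, and matches may overlap each other. The AP-1 motif TGANTCA was in 0 of the 6 windows and in 7.8% of all promoters, and the TATA box TATAAA in 0 and in 13.6%. The SMAD motif CAGACA was in the Lamb2 window alone and in 21.0% of all promoters. The E-box CANNTG was in 4 of 6 and in 72.3%, and the ETS core GGAA in 6 of 6 and in 96.0%. The CArG box, the motif of serum response factor, was found in 1 member, Lama2, 39 bases before the start, and in 1.6% of all promoters. These matches describe letters in a window and say nothing of binding.

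The α chain carries the main cell-binding part of a laminin. Of the 4 α chains, Lama4 and Lama5 were called as lower at day 7, Lama2 was not called, and Lama3 was near background. Lama4, the α4 chain of endothelial and smooth muscle laminins (cluster TC1000000322.mm.1), had log2 signals of 11.74, 11.20 and 12.03 at day 0, 9.69, 10.48 and 10.99 at day 1, 9.78, 9.87 and 9.62 at day 3, and 9.62, 10.40 and 9.97 at day 7. All 9 treated arrays lay below all 3 untreated arrays. Lama4 fell by 1.90 ± 0.33 at day 3 (adjusted p = 0.0101, limma) and fell by 1.66 ± 0.33 at day 7 (adjusted p = 0.00903), and both calls held when any 1 array was left out. At day 1 the change was -1.27 ± 0.33 and did not pass (adjusted p = 0.0732); without replicate 3 of day 1, the highest of that day, it was -1.57 and passed (adjusted p = 0.0308, with a range of 0.026 to 0.649 over 24 alternatives).

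Lama5 encodes the α5 chain, which supports endothelial adhesion and is produced by mature endothelium (cluster TC0200005402.mm.1). Its signals were 8.47, 8.54 and 8.43 at day 0, 7.52, 8.20 and 9.37 at day 1, 8.01, 7.75 and 7.32 at day 3, and 7.10, 6.51 and 7.73 at day 7. The day 1 arrays lay on both sides of the untreated ones, whereas every day 3 and day 7 array lay below them. Lama5 fell by 1.37 ± 0.44 at day 7, with an adjusted p of 0.0484 (limma), just inside the threshold. That call was lost when 1 of 9 arrays was left out (any array of day 0 or day 3, replicate 2 of day 1, or replicate 1 or 2 of day 7), with changes from -1.40 to -1.07 and adjusted p up to 0.133. The change at day 3 was -0.79 ± 0.44 and did not pass (adjusted p = 0.271).

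Lama2, the α2 chain of muscle and Schwann cell laminins (cluster TC1000001919.mm.1), showed no change that passed on any day. Its signals were 9.74, 9.23 and 9.84 at day 0, 9.83, 9.90 and 9.63 at day 1, 9.88, 10.01 and 9.75 at day 3, and 8.95, 8.73 and 10.32 at day 7. At day 7 replicate 3 was the highest of the 12 arrays and replicates 1 and 2 were the lowest, so the day 7 mean describes neither. The day 7 change was -0.27 ± 0.36, with a 95% confidence interval of -1.07 to 0.53. Without replicate 3 of day 7 it was -0.76 and passed (adjusted p = 0.0176, limma, with a range of 0.0176 to 0.960 over 24 alternatives), as did the change from day 3 to day 7, at -1.04 (adjusted p = 0.0491, with a range of 0.0491 to 0.983).

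Lama3, the α3 chain of epithelial laminins (cluster TC1800000103.mm.1), was near background. Its signal was 5.57 to 6.15 over the 12 arrays and lay under the median of the negative-control features on 11 of them. Changes ran from 0.10 to 0.22, and none passed. Markers of epithelium and mesothelium, 9 of 9, lay under the same median on all 12 arrays.

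The β1 and β2 chains, alternatives in the laminin trimer, moved in opposite directions. Lamb2, the β2 chain (cluster TC0900001408.mm.1), had signals of 12.12, 12.59 and 12.43 at day 0, 10.75, 10.92 and 11.80 at day 1, 10.80, 10.53 and 10.31 at day 3, and 9.56, 9.58 and 10.88 at day 7. All 9 treated arrays lay below the untreated ones, with replicate 3 the highest of its day at days 1 and 7. Lamb2 fell by 1.83 ± 0.38 at day 3 (adjusted p = 0.0176, limma) and fell by 2.37 ± 0.38 at day 7 (adjusted p = 0.00378). The day 7 call held when any 1 array was left out. The day 3 call was lost without replicate 2 or 3 of day 0 or without replicate 2 or 3 of day 3, with changes from -1.82 to -1.71 and adjusted p from 0.0565 to 0.0729. At day 1 the change was -1.22 ± 0.38 and did not pass (adjusted p = 0.125); without replicate 3 of day 7 it was -1.22 and passed (adjusted p = 0.046, with a range of 0.0432 to 0.813 over 24 alternatives).

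Lamb1, the β1 chain of most embryonic and many adult laminins (cluster TC1200000263.mm.1), had signals of 7.33, 7.40 and 7.43 at day 0, 7.31, 7.96 and 7.64 at day 1, 7.70, 7.90 and 8.11 at day 3, and 8.61, 9.93 and 8.59 at day 7. The untreated arrays were close to each other, day 1 overlapped them, and the arrays of day 3 and day 7 all lay above them. Lamb1 rose by 1.65 ± 0.33 at day 7 (adjusted p = 0.00845, limma), and the call held when any 1 array was left out, replicate 2 of day 7, the highest, among them. It was lost when only the arrays of days 0 and 7 were fitted (adjusted p = 0.0505, with a range of 0.00507 to 0.926 over 24 alternatives). The changes at day 1 and day 3 were 0.25 ± 0.33 and 0.52 ± 0.33 and did not pass (adjusted p = 0.849 and 0.315).

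As a description chosen after the values were seen, the difference Lamb1 minus Lamb2 within an array was taken relative to its day 0 mean. It was 1.55, 2.03 and 0.83 at day 1, 1.90, 2.36 and 2.79 at day 3, and 4.04, 5.34 and 2.70 at day 7. The 9 treated arrays were all above the day 0 mean, and the day 7 mean was 4.03 ± 1.32 (SD, n = 3). This is a difference of changes and not a ratio of the amounts of the chains, since signals of different probes are not on a common scale.

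Lamc1, the γ1 chain shared by most laminins (cluster TC0100003273.mm.1), showed no change that passed. Its signals were 11.15, 11.29 and 11.22 at day 0, 10.82, 11.88 and 11.89 at day 1, 10.94, 11.26 and 11.35 at day 3, and 9.99, 11.30 and 11.07 at day 7. Treated and untreated arrays overlapped on every day, and replicate 1 was the lowest array of each treated day. The changes were 0.31 ± 0.36, -0.04 ± 0.36 and -0.44 ± 0.36 at days 1, 3 and 7, with a 95% confidence interval of -1.25 to 0.38 at day 7.

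The nidogens, rod-shaped glycoproteins that connect laminin γ1 to type IV collagen, were both higher after infusion, and they were the only members called at day 1. Nid1 (cluster TC1300000087.mm.1) had signals of 10.22, 9.69 and 9.86 at day 0, 11.47, 11.45 and 11.22 at day 1, 11.21, 11.44 and 11.17 at day 3, and 10.54, 11.09 and 11.32 at day 7. All 9 treated arrays lay above the untreated ones, with replicate 1 of day 7 the lowest of the 9. Nid1 rose by 1.45 ± 0.20 at day 1 (2.74-fold, adjusted p = 0.0093, limma), by 1.36 ± 0.20 at day 3 (2.56-fold, adjusted p = 0.00581) and by 1.06 ± 0.20 at day 7 (2.09-fold, adjusted p = 0.00729). Without replicate 2 of day 1 the day 1 change was 1.42 and did not pass (adjusted p = 0.0513, with a range of 0.00426 to 0.302 over 24 alternatives). The day 3 and day 7 calls held when any 1 array was left out.

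Nid2 (cluster TC1400000158.mm.1) was close to the negative-control features, with signals of 6.08, 6.11 and 6.03 at day 0, 6.48, 6.52 and 6.51 at day 1, 6.72, 6.42 and 6.34 at day 3, and 6.27, 6.44 and 6.31 at day 7. All treated arrays were above all untreated ones, by a small margin. Nid2 rose by 0.43 ± 0.10 at day 1 (adjusted p = 0.0442, limma) and by 0.42 ± 0.10 at day 3 (adjusted p = 0.0255); the day 7 change of 0.27 ± 0.10 did not pass (adjusted p = 0.0686). These calls depended on the scaling: after centring each array on its median the changes were 0.40 at day 1, 0.24 at day 3 and -0.01 at day 7, none of which passed, and quantile normalization left none either. The day 1 call was lost without any 1 of 8 arrays (each array of day 0 and day 1, replicate 2 of day 3, replicate 3 of day 7), with adjusted p up to 0.156, and the day 3 call without any array of day 0 or replicate 2 of day 3, with adjusted p up to 0.0869. Without replicate 1 of day 3 the day 7 change was 0.27 and passed (adjusted p = 0.0277, with a range of 0.0277 to 0.972 over 24 alternatives).

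Hspg2 encodes perlecan, whose heparan sulfate chains bind growth factors and restrain smooth muscle growth (cluster TC0400001708.mm.1). Its signals were 12.89, 13.20 and 12.85 at day 0, 11.56, 12.08 and 13.06 at day 1, 11.48, 11.54 and 11.29 at day 3, and 9.83, 10.44 and 11.24 at day 7. Replicate 3 of day 1 lay among the untreated arrays, and every array of day 3 and day 7 lay below them. Hspg2 fell by 1.55 ± 0.40 at day 3 (2.92-fold lower, adjusted p = 0.0377, limma) and fell by 2.48 ± 0.40 at day 7 (adjusted p = 0.00399). The day 7 call held when any 1 array was left out. The day 3 call was lost without any 1 array of day 0 or day 3, or without replicate 2 of day 1 or of day 7, with changes from -1.61 to -1.44 and adjusted p from 0.0503 to 0.124. At day 1 the change was -0.75 ± 0.40, with an interval of -1.65 to 0.15.

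Perlecan and nidogen-1, both linkers of the laminin and collagen networks, moved apart. Relative to day 0, Nid1 minus Hspg2 within an array was 2.97, 2.42 and 1.22 at day 1, 2.80, 2.96 and 2.94 at day 3, and 3.77, 3.71 and 3.14 at day 7, a description chosen after the values were seen. The day 3 arrays were close to each other, and the day 7 arrays all lay above them.

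**Figure D2:**
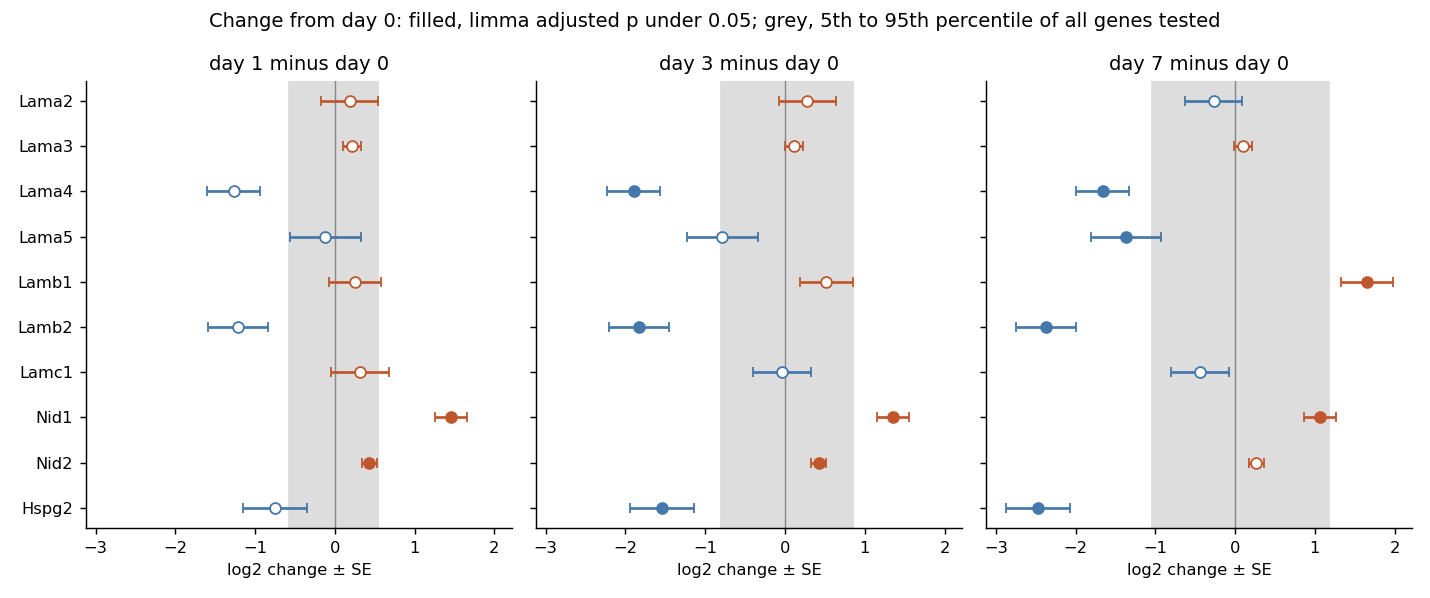
Log2 change against day 0 ± standard error (limma) of each of the 10 genes at days 1, 3 and 7; filled points passed an adjusted p under 0.05, orange is higher and blue lower than day 0, and the grey band spans the 5th to 95th percentile of all genes tested. Hspg2 and Lamb2 reach -2.48 and -2.37 at day 7, Lamb1 reaches 1.65, and the Nid1 points lie at 1.45, 1.36 and 1.06.

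Counted together, 2 of 10 members rose and 0 fell at day 1, where 3.62% of all genes tested were called, 1.99% as rises and 1.63% as falls. At day 3, 2 rose (Nid1, Nid2) and 3 fell (Lama4, Lamb2, Hspg2), where 11.8% of all genes were called, 4.61% as rises and 7.14% as falls. At day 7, 2 rose (Lamb1, Nid1) and 4 fell (Lama4, Lama5, Lamb2, Hspg2), against 12.1% and 13.2% of all genes. The 3 comparisons share the untreated arrays, so their calls are not separate evidence. The median change of the members was 0.20 at day 1, 0.04 at day 3 and -0.35 at day 7, against 0.01, 0.08 and 0.09 over all genes. The arrays of treated and untreated groups did not overlap for 2 members higher and 2 lower at day 1, where 11.8% of all genes were higher and 11.5% lower in this sense. The same held for 4 and 4 members at day 3 (23.3% and 21.4% of all genes) and for 3 and 4 at day 7 (26.6% and 20.5%).

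Between neighbouring days no member passed. From day 1 to day 3, 0 of 22066 genes passed (limma), with 1776 at an unadjusted p under 0.05, of which 0 were members; Hspg2, at -0.80, had all arrays of day 3 below all of day 1, as had 6.78% of all genes, and 7.04% were higher in this sense. From day 3 to day 7, 0.267% of all genes passed, 0.113% as rises and 0.154% as falls, and 0 members did, with 2 members at an unadjusted p under 0.05. These were Lamb1, at 1.13 ± 0.33 (unadjusted p = 0.00643, adjusted p = 0.19), and Hspg2, at -0.93 ± 0.40 (unadjusted p = 0.0442, adjusted p = 0.371). The 3 Lamb1 arrays of day 7 were above all of day 3, where 7.04% of all genes were higher in this sense, and the 3 Hspg2 arrays of day 7 were below all of day 3, where 7.97% were lower. A difference in any day at all, from limma's F test over the 3 changes, passed for 6 of 10 members (Lama4, Lamb1, Lamb2, Nid1, Nid2 and Hspg2) and for 14.6% of all genes. Its adjusted p was 0.124 for Lama5, 0.417 for Lamc1, 0.472 for Lama3 and 0.57 for Lama2.

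**Figure D3:**
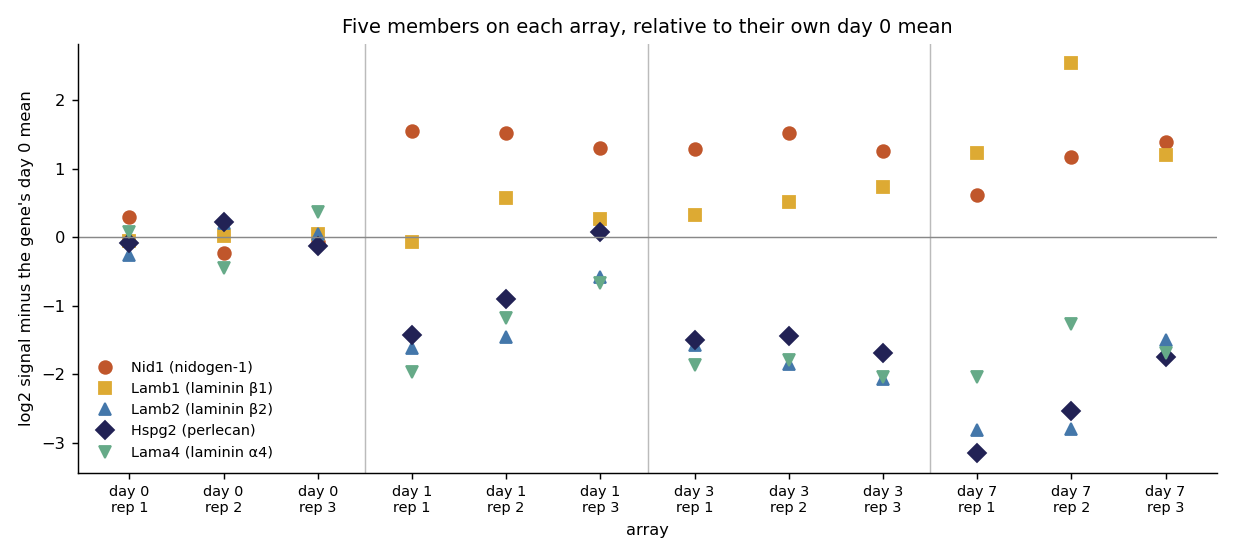
Log2 signal minus the day 0 mean of the same gene, on each of the 12 arrays, for Nid1, Lamb1, Lamb2, Hspg2 and Lama4. Hspg2, Lamb2 and Lama4 are lower across the day 3 and day 7 arrays, Nid1 is higher on every treated array, and replicate 3 of day 1 is the array of its day nearest to day 0 for Hspg2, Lamb2 and Lama4.

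For the 6 members that passed the F test, the genes with the most similar pattern were searched among 14957 genes over the 12 arrays, which share their day structure. Hspg2 was most similar to Tln1 (Pearson's r = 0.994), Vcl (0.991) and Cap1 (0.985), which encode the adhesion proteins talin and vinculin and an actin regulator. Lamb2 was most similar to Niban1 (0.989), Samd4 (0.988) and Csrp1 (0.986), and Lama4 to Fyttd1 (0.968), Serinc5 (0.968) and Afap1 (0.964). Lamb1 was most similar to H2-M9 (0.968), Thbs4 (0.966) and Cthrc1 (0.965), of which Thbs4 and Cthrc1 encode secreted matrix proteins. Nid1 was most similar to Septin11 (0.965), Ptgfrn (0.961) and Csf1r (0.959), the macrophage growth factor receptor, and Nid2 to Flt1 (0.932), Sorcs2 (0.902) and H2ac15 (0.895). These are the highest of many correlations and are given as descriptions.

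Markers of several cell types also changed against day 0. Beside the counts here and in the next paragraph stand the shares of all genes tested. At days 1, 3 and 7, 1.99%, 4.61% and 12.1% of them rose and 1.63%, 7.14% and 13.2% fell. At days 1, 3 and 7, 1, 4 and 9 of 10 smooth muscle markers fell and 0 rose, and replicate 3, which had the highest signals of Lamb2 and Hspg2 at days 1 and 7, also had the highest smooth muscle mean of those days (13.42 and 11.16). At day 3 Lamb2 and the smooth muscle mean were highest in replicate 1, and Hspg2 in replicate 2 (11.54). Lama5 had the replicate order of the smooth muscle mean at days 1, 3 and 7. Lama2 had it at day 7 but not at days 1 and 3. At day 7 Lama4 was highest in replicate 2 (10.40), the array with the lowest smooth muscle mean (8.59). With that mean as a covariate, 0 of 10 members passed at any day (limma), with 4, 5 and 2 members at an unadjusted p under 0.05 at days 1, 3 and 7. The day 7 changes were then -0.65 for Hspg2, -0.21 for Lamb2, -1.16 for Lama4, 0.43 for Lamb1 and 1.11 for Nid1, against -2.48, -2.37, -1.66, 1.65 and 1.06 without it. Lama5 turned direction in this model, from -1.37 to 1.24 at day 7. In the same model 50, 12 and 0 of all 22066 genes passed at days 1, 3 and 7, with 1805 at day 7 at an unadjusted p under 0.05. All 9 treated arrays lay below all untreated ones in the smooth muscle mean, so that mean and the infusion cannot be told apart in this model.

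Macrophage markers rose, 7, 9 and 8 of 9 at days 1, 3 and 7, with a mean signal of 7.65 to 8.07 at day 0 and 9.01 to 10.22 over the treated arrays; their part in the Nid1 change was not tested. Of 10 endothelial markers 0, 1 and 2 fell at days 1, 3 and 7 and 0 rose, where 1.63%, 7.14% and 13.2% of all genes fell. Their mean was 8.80 to 9.23 at day 0 and 9.22 to 9.67 at day 1. It was 8.49 to 9.33 at day 3, overlapping day 0, and 8.05 to 8.64 at day 7, with all arrays below day 0. The part of endothelial cells in the Lama4 and Lama5 changes was not tested. Of 8 fibroblast markers 0, 2 and 3 rose and 1 fell on each day. Their mean was 11.20 to 12.14 at day 0 and 12.00 to 12.23 at day 1. It was 12.09 to 12.29 at day 3 and 12.41 to 12.97 at day 7. The part of fibroblasts in the Lamb1 change was not tested. Of 6 pericyte markers 1, 1 and 4 fell, with a mean of 9.92 to 10.31 at day 0 and 8.18 to 9.0 at day 7, and 1 rose at day 7. Of 8 white adipocyte markers 0 fell and 1 rose at day 7, and of 7 tested brown adipocyte markers 2, 3 and 2 fell and 1, 1 and 0 rose. With the mean of both adipocyte lists as a covariate 0, 0 and 5 members passed at days 1, 3 and 7, with 3, 4 and 6 at an unadjusted p under 0.05, and 0, 30 and 1844 of all 22066 genes did. The Nid1 changes at days 1 and 3 were then 1.28 and 1.20, against 1.45 and 1.36 without the covariate, and the Lama4 and Hspg2 changes at day 3 were -1.36 and -0.62, against -1.90 and -1.55. Every treated array lay below every untreated one in the adipocyte mean, so it and the infusion cannot be told apart in this model. At day 7, 6 of 8 tested skeletal muscle markers and 5 of 5 tested cardiac markers rose, and of 5 tested Schwann cell markers 0 did. The skeletal muscle mean went from 5.42 to 5.74 at day 0 to 5.71 to 6.58 at day 7, and the cardiac mean from 5.68 to 5.82 to 6.90 to 7.24, where the negative-control medians of the day 7 arrays were 6.06 to 6.14. The part of these cells in the day 7 changes was not tested. Under the negative-control median on all 12 arrays were Higd1b among the pericyte, Elovl3 among the brown adipocyte, Tnni2 and Mylpf among the skeletal muscle, Nppa among the cardiac and Mbp and Gfra3 among the Schwann cell markers.

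The control features were also entered as a covariate, as the difference between the positive and negative medians of each array. Nid1 then passed on all 3 days, at 1.61, 1.63 and 1.44, and Nid2 at day 1, at 0.49. No other member passed on any day. Of all genes 1004, 464 and 771 passed at days 1, 3 and 7, against 799, 2593 and 5570 without the covariate. Every treated array lay below every untreated one in the control difference, so it and the infusion cannot be told apart in this model. The day 7 changes were -1.17 for Hspg2 (adjusted p = 0.105, limma), -1.38 for Lamb2 (0.143), -0.87 for Lama4 (0.312) and 2.07 for Lamb1 (0.0666). Over 24 alternatives these adjusted p-values ranged from 0.00192 to 0.882, 0.00101 to 0.951, 0.00429 to 0.784 and 0.00507 to 0.926.

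**Figure D4:**
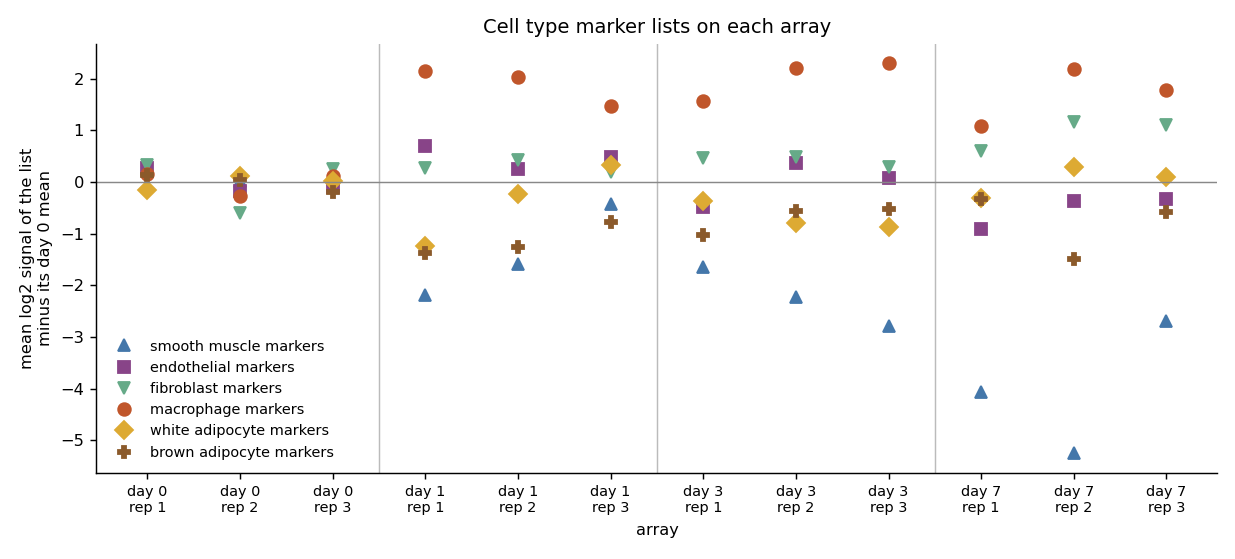
Mean log2 signal of 6 marker lists on each of the 12 arrays, minus the day 0 mean of the list. The smooth muscle points lie below 0 on every treated array and lowest at day 7, and the macrophage points lie above 0 on every treated array.

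Of 61 other basement membrane genes listed, 53 could be tested. At day 1, 4 rose and 3 fell, at day 3, 7 rose and 10 fell, and at day 7, 4 rose and 19 fell. Of all genes 3.62%, 11.8% and 25.2% were called in either direction on these days. Rises were 1.99%, 4.61% and 12.1% of all genes and falls 1.63%, 7.14% and 13.2%. The counts of each list below stand beside these shares. From day 1 to day 3 none was called, and from day 3 to day 7 1 was, Mmp3.

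Of 11 receptors for laminin, 8 fell at day 7 and 0 rose, where 13.2% of all genes fell, and their median change was -1.15 against 0.09 over all genes. The other receptors, which did not pass, were Itga6 at 0.57, with all day 7 arrays above day 0, Sdc1 at 0.11 and Itgb4 at -0.18. Mcam, a laminin α4 receptor of endothelium and smooth muscle, fell by 3.38 ± 0.65 at day 7 (adjusted p = 0.00755, limma) and fell by 2.33 ± 0.65 at day 3 (adjusted p = 0.0464). Bcam, the receptor of the α5 chain, fell by 3.41 ± 0.48 at day 7 (adjusted p = 0.00234) and fell by 2.38 ± 0.48 at day 3 (adjusted p = 0.0164). Of the integrin chains, Itgb1 fell by 2.52 ± 0.38 (adjusted p = 0.00303) and Itga3 fell by 2.15 ± 0.37 (adjusted p = 0.00516) at day 7. The others of the 8 were Itga7, Dag1, Sdc4 and Rpsa. At day 1, 0 of the 11 passed. With the smooth muscle mean as a covariate 0 of 22066 genes passed at day 7, so none of these receptors did.

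Type IV collagen and basement membrane zone collagens, 8 genes, gave 1 fall at day 1, 1 rise and 2 falls at day 3, and 3 falls at day 7. Their median changes were -0.01, -0.05 and -0.28, against 0.01, 0.08 and 0.09 over all genes. Col4a6 fell on each day, by 1.29 ± 0.26, 1.44 ± 0.26 and 1.64 ± 0.26 (adjusted p = 0.0317, 0.0117 and 0.00389, limma), and Col4a5, its partner chain in smooth muscle, by 1.04 ± 0.29 at day 3 (adjusted p = 0.0456) and by 1.14 ± 0.29 at day 7 (adjusted p = 0.0221). Col4a1, a chain of the ubiquitous type IV collagen, rose by 0.61 ± 0.17 at day 3 (adjusted p = 0.0442). Col18a1, the source of endostatin, fell by 2.32 ± 0.53 at day 7 (adjusted p = 0.0147). Of the 4 other laminin chains listed 1 could be tested, Lamc3, which fell on each day, by 0.81, 0.63 and 0.87 ± 0.13 (adjusted p = 0.015, 0.0165 and 0.00282), from a day 0 mean of 6.64.

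Among 12 other basement membrane components tested, 1 rose at day 1, 2 rose and 3 fell at day 3, and 4 fell at day 7. Their median changes were 0.04, 0.17 and -0.44, against 0.01, 0.08 and 0.09 over all genes. Npnt, nephronectin, a ligand of integrin α8β1, fell by 4.35 ± 0.91 at day 3 and by 5.94 ± 0.91 at day 7 (adjusted p = 0.0182 and 0.00318, limma). Smoc1, a calcium-binding matrix protein, fell by 2.17 ± 0.53 and fell by 3.28 ± 0.53 on those days (adjusted p = 0.0303 and 0.0039). Fbln2, a fibulin that binds nidogen and perlecan, rose by 1.44 ± 0.28 at day 1 and by 1.17 ± 0.28 at day 3 (adjusted p = 0.0263 and 0.0274), and Fbln1 by 1.03 ± 0.26 at day 3 (adjusted p = 0.0369). Tinagl1 and Ntn4, a netrin that binds laminin, fell at day 7 by 1.50 ± 0.32 (adjusted p = 0.0117) and 1.08 ± 0.33 (adjusted p = 0.0425). Sparc read the same value on all 12 arrays and gives no change.

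Enzymes that cut basement membrane proteins or heparan sulfate, 12 tested, were mixed. At day 1, 3 rose and 1 fell, and at both later days 4 rose and 2 fell. At day 7, 12.1% of all genes rose and 13.2% fell. Mmp3, stromelysin-1, which degrades laminin, nidogen and proteoglycans, rose by 3.17 ± 0.32 at day 1 and by 3.44 ± 0.32 at day 3 (adjusted p = 0.00276 and 0.00105, limma) and fell by 2.67 ± 0.32 from day 3 to day 7 (adjusted p = 0.015). Ctss, cathepsin S of macrophages, rose by 2.74 ± 0.74 at day 3 and by 4.03 ± 0.74 at day 7 (adjusted p = 0.0428 and 0.00642). Mmp2, a gelatinase, and its activator Mmp14 rose at day 7 by 2.37 ± 0.39 (adjusted p = 0.00421) and 2.05 ± 0.29 (adjusted p = 0.00241), while Adamts1, which cleaves proteoglycans, fell by 1.56 ± 0.42 at day 3 (adjusted p = 0.043) and fell by 3.66 ± 0.42 at day 7 (adjusted p = 0.00123). At day 1 Plau, the urokinase plasminogen activator, rose by 1.34 ± 0.19 (adjusted p = 0.0105) and Adamts5 by 1.33 ± 0.30 (adjusted p = 0.0465), while the serine protease Htra1 fell by 1.05 ± 0.24 (adjusted p = 0.0454). Of 9 tested genes for the assembly and crosslinking of type IV collagen, 1 was called on any day, P3h2, a collagen prolyl hydroxylase. It fell by 1.32 ± 0.31 at day 7 (adjusted p = 0.0175, limma), where 13.2% of all genes fell.

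**Figure D5:**
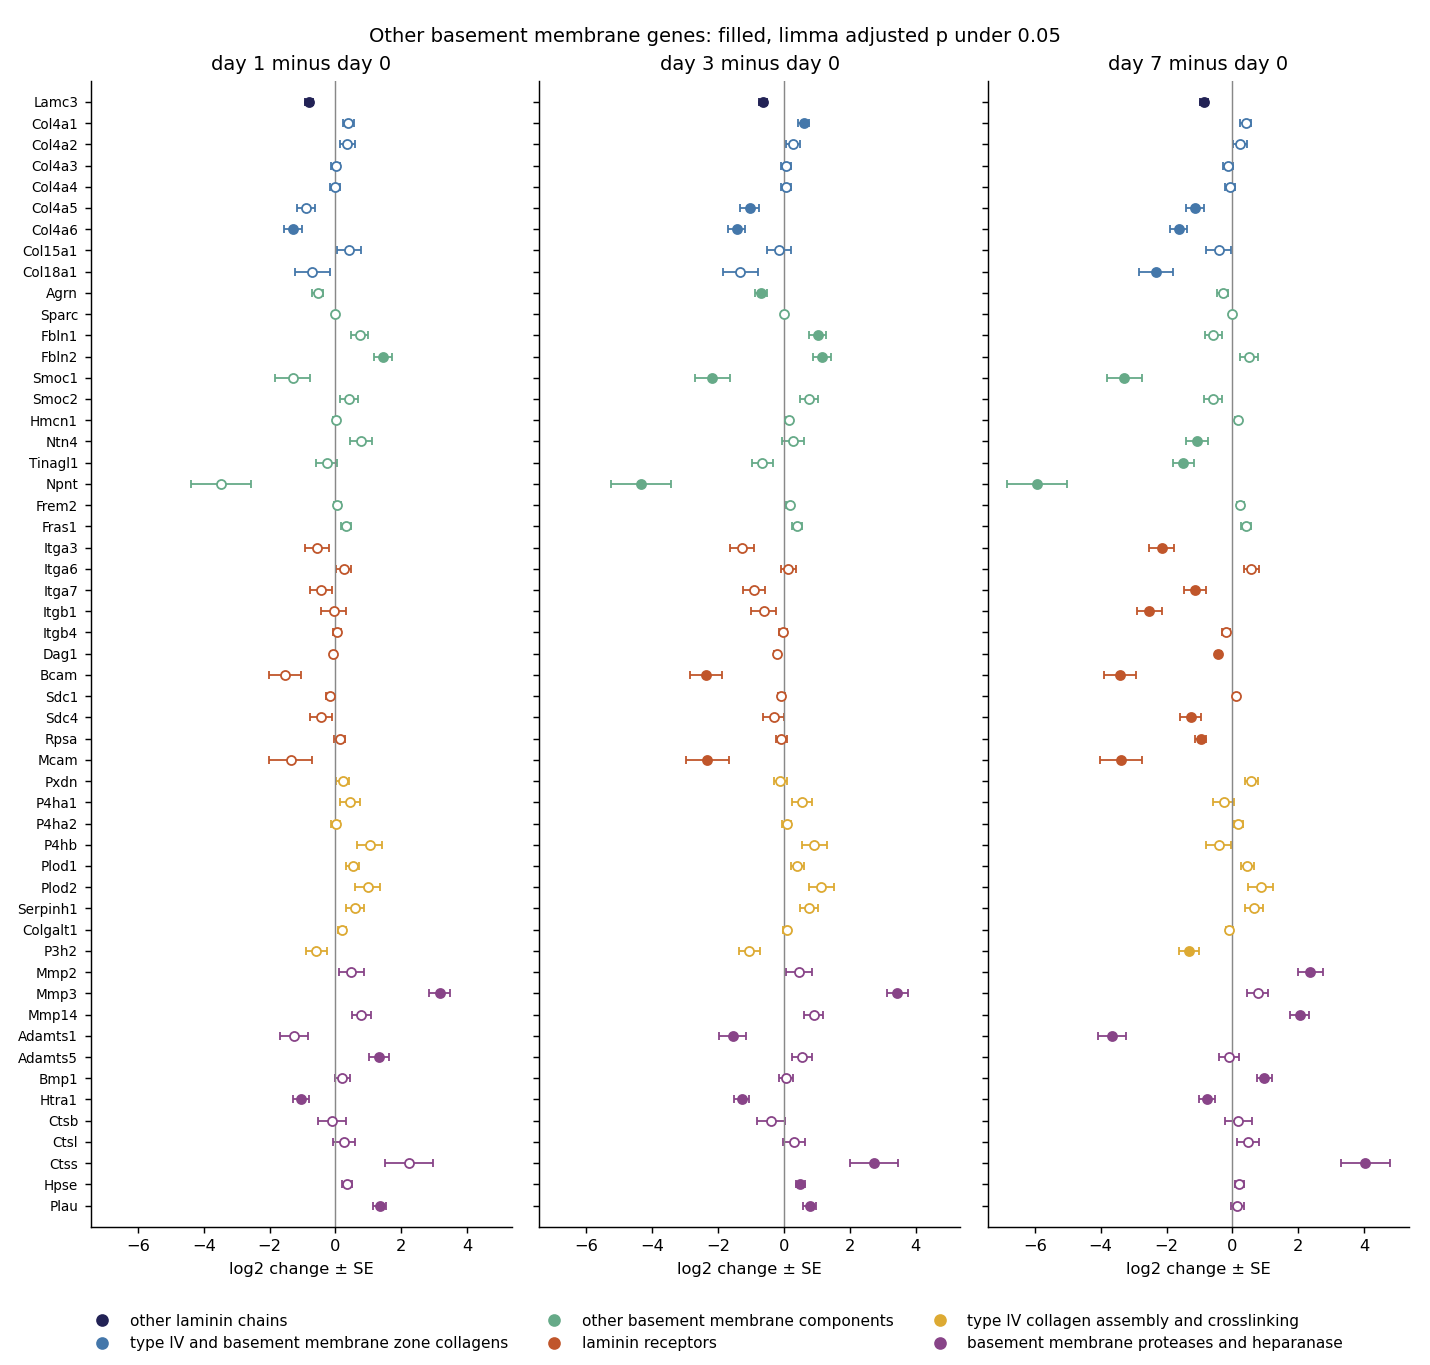
Log2 change against day 0 ± standard error (limma) of the other basement membrane genes tested, at days 1, 3 and 7, coloured by list; filled points passed an adjusted p under 0.05. Most laminin receptors are filled and below 0 at day 7. Among the proteases Mmp3 and Ctss lie furthest above 0 at days 1 and 3, and Ctss, Mmp2 and Mmp14 at day 7.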

How the data were processed

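RNA of mouse vessels was hybridised to 12 arrays, 3 for each of 4 groups, and 1 array is 1 replicate. The submitters' processing notes name Affymetrix Expression Console as the source of the log2 signals that the authors deposited. Not given in the sources used here are its version, background correction and normalization. The deposited identifiers are transcript clusters, whereas a 430 2.0 array, the type in the labels, has probe sets. Of 65956 transcript clusters, 31258 have 1 symbol, 1492 several and 33206 none in the platform annotation, after 2066 older symbols were updated through RefSeq. The cluster with the highest mean stood for each of 30702 genes. Genes at or above a log2 signal of 5.25, the 40th percentile, on at least 3 arrays were tested, 22066 in all. This level lies below the negative-control median of every array, which was 5.91 to 6.14. Signals were fitted with limma 3.58.1 in R 4.3.3, with a mean for each day, all 12 arrays and eBayes, and p-values were adjusted by Benjamini-Hochberg over all genes tested. A gene was called at an adjusted p under 0.05.

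Precision is limited by having 3 arrays per group. On simulated data with 200 of 22066 genes changed, the fit called 60% of changes of 1 on the log2 scale and 88% of changes of 2 for day 1. It called 53% and 90% for day 3, and 53% and 88% for day 7, with 16, 12 and 10 false calls. The noise was drawn separately for each gene, with no shift shared by a whole array. Far fewer genes were changed than the 5570 called at day 7 in the data, so these rates may not carry over. The text names all members, in each comparison the called genes of each list up to the 4 with the largest change, and the 3 genes most similar to each member that passed the F test. The members and lists were chosen with earlier results of these data known. Alternatives varied the normalization, filter, choice of cluster, variance model, covariates, samples and replicate block.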

Additional observations from a re-analysis of the deposited data

How the results depend on the processing

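Of 312 recomputed values of called changes, 234 kept direction and call, 77 lost the call and 1 turned: Lama5 at day 7, at 1.24 with the smooth muscle mean as a covariate (adjusted p = 0.509, limma). Of the uncalled changes 10 became called. The members called were 6 on any day (F test), 2 at day 1, 5 at day 3 and 6 at day 7, and 0 between neighbouring days. For the F test they were 1 with the control features, 3 with the adipocyte mean and 0 with the smooth muscle mean as a covariate, where 935, 2124 and 126 of all genes passed, against 3217. For day 1 they were 1 after quantile normalization, 1 after median centring, 1 with no filter, 1 with only the 2 groups compared, and 0 with either cell marker covariate. In these fits 439, 439, 596, 209, 0 (adipocyte) and 50 (smooth muscle) of all genes passed, against 799. Leaving out replicate 3 of day 1 and replicate 1 of day 7 together, an alternative chosen after seeing the data, gave 4 members and 1636 of 21472 genes. For day 3 they were 3 after quantile normalization, 1 with the control features and 0 with either cell marker covariate, fits in which 30 (adipocyte) and 12 (smooth muscle) of all genes passed and the Nid1 change was 1.20 and 1.39, against 1.36. Of all genes 1836 passed at day 3 after quantile normalization and 464 with the control features, against 2593. For day 7 they were 1 with the control features and 0 with the smooth muscle mean, where 771 and 0 of all genes passed, against 5570. The cause of these losses was not tested. Leaving out 1 array at a time gave 1 to 7 members for the F test, 0 to 2 at day 1, 2 to 5 at day 3, 5 to 7 at day 7, 0 to 0 from day 1 to day 3 and 0 to 1 from day 3 to day 7. Over all genes these fits called 1007 to 4279 in the F test, 101 to 1105 at day 1 and 715 to 3535 at day 3. They called 2839 to 7438 at day 7, 0 to 1 from day 1 to day 3 and 10 to 268 from day 3 to day 7.

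Same-numbered arrays were not alike on every pair of days: their deviations correlated at -0.51 to 0.66, with 7 of 18 pairs over 0.1. Those of differently numbered arrays correlated at -0.65 to 0.46, with 10 of 36 pairs over 0.1. Between days 1 and 7 same-numbered arrays correlated at 0.61, 0.36 and 0.66, and differently numbered ones at -0.65 to 0.03. Whether the numbers pair the arrays was therefore not settled. With the replicate block 1 member was called at day 1, 5 at day 3, 5 at day 7 and 5 in the F test, and 820, 2794, 5781 and 3333 of all genes were. Lama3 and Nid2 lie near the negative-control features, which limits how small a change their signals can show.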
